A study of Mus musculus with 12 samples.

Results

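Nucleosome positions of round spermatids and of meiotic germ cells were compared here where both had received the same low amount of micrococcal nuclease (MNase) per cell. The round spermatid fraction, called RS, was digested with 1 U of MNase, and the meiotic fraction, called M, with 0.5 U. Per the labels' protocols, 2 times as many cells were taken for RS, so that both received 0.5 U per unit of cell number. This match is per cell and was not adjusted for the DNA content of a cell. Equal digestion of the chromatin is therefore not shown, and the ratios below cannot tell stage apart from extent of digestion. The comparison covered 4 of the 12 samples of the study and 2 of its 6 lists of nucleosome calls, with 83833 of its 415758 calls. Both fractions came from male SV129 mice aged 8 to 12 weeks, 11 animals pooled per collection, and were separated by STAPUT sedimentation to a purity of at least 85% before 7.5 min of digestion at 37 °C. No genetic change or drug is named for either group. The sample titles call M meiotic spermatid and the protocol calls it meiotic, so its exact stage cannot be told from these labels, and nucleosome calls hold no expression of stage markers against which the names could be checked. Each list was made by the authors from both samples of its group, and there was 1 list per stage. No difference could therefore be tested against replicate error, and the intervals given are exact 95% intervals for counting error only. They are too narrow wherever calls overlap. Pooled cells also do not tell a change in every cell apart from a different mixture of cells in the fraction.

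MNase cuts the linker DNA between nucleosomes and then trims and digests DNA that is not held firmly, so surviving fragments of mononucleosome length mark DNA wrapped around histones. In male meiosis the X and Y are gathered into the transcriptionally silent sex body, and in round spermatids much of the X stays repressed. Later spermatids exchange histones for transition proteins and then protamines, and before that histones become acetylated by enzymes such as Gcn5 (Kat2a), which the title of the study names. In many cell types promoters with many CpG dinucleotides stay short of stable nucleosomes at the transcription start and have positioned nucleosomes beside it.

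The lists were of nearly the same size, which was part of why this pair was chosen and so is not a result. RS at 1 U held 41655 calls and M at 0.5 U held 42178, a ratio of 0.99 (0.974 to 1.00). Each call was a window of 140 bp, and neighbouring calls often overlapped. Joining overlapping calls left 25350 positions in RS and 25930 in M, with 1.64 and 1.63 calls per position. Each call carries a p-value from the authors, and the values matched upper tails of a Poisson distribution that start at 6 reads, so that a read count could be derived for each call. The derived mean was 0.472 reads per window for RS and 0.434 for M. At these means the Poisson tail from 6 reads was 1.62 times as high in RS as in M. A window without a nucleosome could thus pass the minimum more often in RS. How far this affects the comparisons below was not tested. Calls at the minimum of 6 reads made up 68.1% of RS calls and 65.4% of M calls, so most calls would be lost with 1 read fewer. Calls of 10 or more reads made up 8.33% (8.07 to 8.60) in RS and 7.36% (7.12 to 7.62) in M over all calls, contigs outside the 21 chromosomes included. On the 21 chromosomes alone they made up 5.23% (5.01 to 5.45) in RS and 5.04% (4.83 to 5.26) in M, and these intervals overlap. Most of these lay in 260 bins of 10 kb that hold more than 20 calls in at least 1 of the study's 6 lists, called dense bins, contigs included. Dense bins held 18.95% of RS calls and 17.05% of M calls, and outside them the share of calls with 10 or more reads was 1.31% in RS and 1.30% in M. The numbers of sequenced reads are unknown. The ratios below set RS calls over M calls after scaling to the totals of the 2 lists (the autosomal totals for chromosomes and 1 Mb bins), so a value above 1 is higher in RS.

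Promoters called in one or both stages show what a call is on the sequence. The table of promoters gives 250 bases before to 50 bases after a transcription start. A call midpoint fell in 171 of 32817 promoters in RS and in 132 in M, with 16 promoters in both. In 14 of these 16 the RS and M midpoints lay within 73 bp, about the reach of a nucleosome from its centre. The 5 below were chosen from the 10 with the most reads of their kind: 3 with a position common to both stages, then 1 called in RS alone and 1 called in M alone. They are RefSeq sequences of GRCm38.p6, 5′ to 3′ on the strand of the gene. Capitals mark the bases common to 1 RS call and 1 M call or, for the last 2, inside 1 call of the stage that has it. Other calls of the same promoter are not marked, so bases in lower case can also lie inside a call.

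Gm41331, both stages, chr15:60141661-60141960, + strand: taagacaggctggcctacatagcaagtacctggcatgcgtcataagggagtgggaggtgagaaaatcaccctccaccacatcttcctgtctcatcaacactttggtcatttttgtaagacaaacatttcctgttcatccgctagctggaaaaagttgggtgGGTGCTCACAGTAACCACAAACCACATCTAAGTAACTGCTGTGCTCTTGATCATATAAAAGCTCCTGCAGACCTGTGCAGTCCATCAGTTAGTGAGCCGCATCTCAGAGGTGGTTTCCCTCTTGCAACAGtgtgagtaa
Slc35b1, both stages, chr11:95384606-95384905, + strand: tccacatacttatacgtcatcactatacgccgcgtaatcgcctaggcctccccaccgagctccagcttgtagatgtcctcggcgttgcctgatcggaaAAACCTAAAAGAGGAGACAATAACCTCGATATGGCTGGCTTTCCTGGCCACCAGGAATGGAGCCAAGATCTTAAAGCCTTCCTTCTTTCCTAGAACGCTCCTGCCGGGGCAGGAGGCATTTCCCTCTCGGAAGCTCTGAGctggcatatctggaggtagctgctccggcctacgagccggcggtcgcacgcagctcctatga
Prl2c3, both stages, chr13:12800030-12800329, - strand: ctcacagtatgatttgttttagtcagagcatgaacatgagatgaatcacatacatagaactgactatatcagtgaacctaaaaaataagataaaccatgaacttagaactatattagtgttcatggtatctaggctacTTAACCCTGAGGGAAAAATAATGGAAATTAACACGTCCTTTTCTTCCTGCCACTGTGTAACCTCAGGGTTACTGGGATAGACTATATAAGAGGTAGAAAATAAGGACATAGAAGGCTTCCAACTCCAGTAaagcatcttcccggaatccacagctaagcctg
Eif4a3l1, RS only, chr6:136327289-136327588, + strand: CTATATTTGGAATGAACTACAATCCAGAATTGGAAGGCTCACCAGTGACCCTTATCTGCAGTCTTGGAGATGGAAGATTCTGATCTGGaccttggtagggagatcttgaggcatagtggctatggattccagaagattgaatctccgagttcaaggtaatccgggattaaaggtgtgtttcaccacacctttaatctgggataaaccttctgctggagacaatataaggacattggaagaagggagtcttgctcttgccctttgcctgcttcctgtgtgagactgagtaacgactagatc
Klra17, M only, chr6:129876623-129876922, - strand: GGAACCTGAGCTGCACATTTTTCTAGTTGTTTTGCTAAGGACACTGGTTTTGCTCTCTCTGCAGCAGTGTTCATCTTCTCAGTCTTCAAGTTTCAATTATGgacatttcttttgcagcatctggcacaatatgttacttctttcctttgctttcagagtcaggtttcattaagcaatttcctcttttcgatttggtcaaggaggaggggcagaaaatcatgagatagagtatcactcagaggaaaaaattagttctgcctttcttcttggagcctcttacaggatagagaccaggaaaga

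Gm41331, a predicted gene, had calls of up to 35 reads in RS and 22 in M, whose midpoints were 10 bp apart. Slc35b1, which encodes a transporter of the endoplasmic reticulum, had its strongest call at identical coordinates in both stages, with 8 reads in RS and 8 in M. It is the only one of the 5 that met the CpG-rich definition used below, and its capitals lie just before the start. Prl2c3, a prolactin family gene in a dense bin, had 12 reads in RS and 8 in M. Eif4a3l1, named as a gene like the RNA helicase gene Eif4a3, had 2 calls in RS, of up to 9 reads, and none in M. Klra17, a gene of the natural killer cell receptor family, had no RS call and 2 M calls in this promoter, which lies in a dense bin, of up to 10 reads in M. Over its whole body it had 9 calls in RS and 15 in M. GC content averaged 53.3 ± 9.94% over those with an RS call and 51.2 ± 9.39% over those with an M call (SD over promoters), against 53.8 ± 11.3% over all promoters. CpG-rich promoters made up 29.8% (23.1 to 37.3) of those with an RS call and 31.1% (23.3 to 39.7) of those with an M call, against 30.3% of all, which lies inside both intervals.

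The X chromosome showed the greatest difference of any chromosome. RS had 189 calls on X and M had 866. Per base, relative to the autosomes, X held calls at a density of 0.0693 (0.0598 to 0.0799) in RS and 0.317 (0.296 to 0.338) in M. RS was therefore at 0.219 (0.186 to 0.257) of M, and M was 4.57 times higher than RS. Counting positions in place of calls gave 121 in RS and 583 in M, and leaving out dense bins as well gave a ratio of 0.201. X was below the autosomes in both stages, and the interval of the RS density did not meet that of M. These densities, and those of Y below, were not adjusted for the number of chromosome copies per cell. What lowers X against the autosomes in either stage was not tested.

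The deficit in RS ran along nearly the whole X. Of 18 segments of 10 Mb, 17 had a ratio under 1 and 16 had an interval wholly under 1. Segment 15, at chrX:140000001-150000000, had 2 RS calls and 53 M calls. Segment 4, at chrX:30000001-40000000, held the most calls of both stages, 35 in RS and 173 in M. The last segment had only 2 RS calls and 1 M call. Within the 966 protein-coding genes of X, counted with 1000 bp on each side, RS had 69 calls and M had 245, a ratio of 0.283 (0.213 to 0.371). The rest of X had 120 calls in RS and 621 in M, a ratio of 0.194 (0.158 to 0.236). More calls in RS than in M were found for 18 of the 966 genes and more in M for 100, while 844 had none in either.

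Among the 10 X genes with the most M calls, the difference was uneven. Dmd, which encodes dystrophin and spans over 2 Mb of X, had no call in RS and 18 calls at 13 positions in M. Enox2 and Gpc3, the gene of a cell surface proteoglycan, also had no RS call, and each had 5 in M. Frmpd4, a neuronal scaffold gene, had 1 call in RS and 8 in M, and Zc3h12b had 3 in RS and 8 in M. Other genes were closer to even in calls, some of them at few positions. Mid1, a ubiquitin ligase gene that reaches the pseudoautosomal boundary, had 12 calls at 7 positions in RS and 17 at 9 in M. Its counted region includes a dense bin. Cldn34d had 11 calls in each stage, at 2 positions in RS and 1 in M. Apool, which encodes a mitochondrial protein, had 6 calls at 1 position in RS and 9 at 3 in M. A count of 0 allows up to 3 calls.

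The Y chromosome did not share this difference. It held 86 calls in RS and 93 in M, a ratio of 0.928 (0.684 to 1.26). Its density relative to the autosomes was 0.0581 in RS and 0.0626 in M. The other pair of lists at equal MNase per cell, RS at 2 U and M at 1 U, came from lists of unlike size (27101 and 60077 calls), and there X density was 0.0890 in RS and 0.199 in M.

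**Figure D1:**
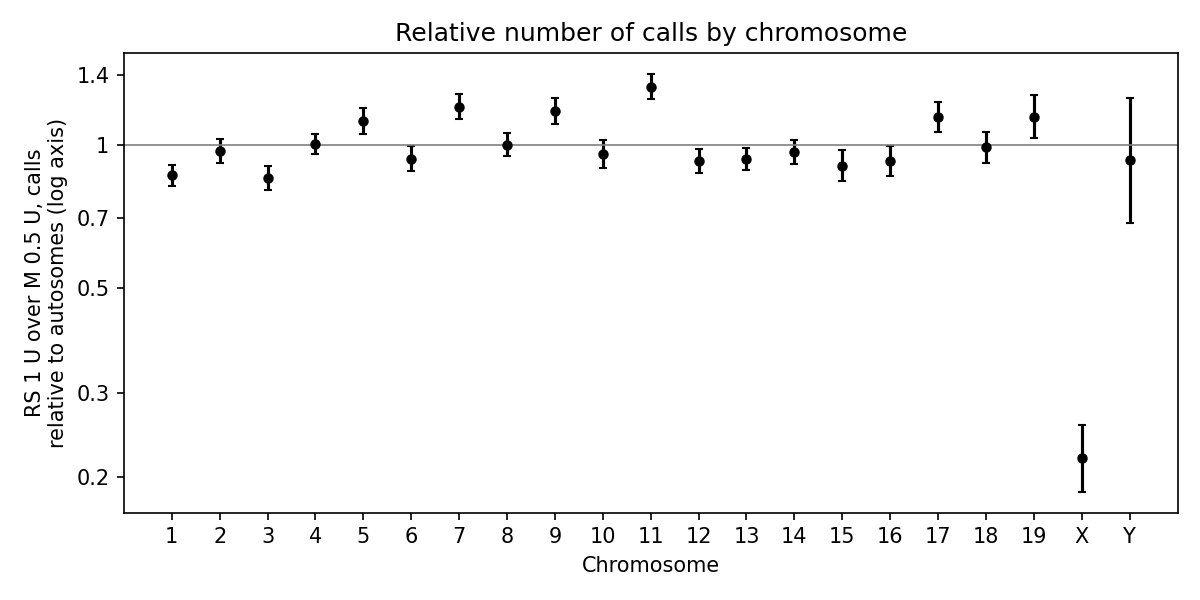
Ratio of RS 1 U over M 0.5 U calls on each chromosome, relative to the autosomes, on a log axis, with exact 95% intervals for counting error. X sits at 0.219, the autosomes lie between 0.851 and 1.33, and the interval of Y includes 1.

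The autosomes differed less, and in an order close to that of their gene density. The ratio ran from 0.851 on chromosome 3 to 1.33 (1.25 to 1.41) on chromosome 11, which had 2389 calls in RS and 1807 in M. The interval lay above 1 for 6 autosomes (5, 7, 9, 11, 17 and 19), below 1 for 7 (1, 3, 6, 12, 13, 15 and 16) and included 1 for the other 6. Without dense bins 9 intervals excluded 1, and those of chromosomes 6, 12, 13 and 16 included it. With joined positions 9 excluded 1, and those of chromosomes 12, 13, 15 and 17 included it. Over the 19 autosomes the ratio ranked with protein-coding genes per Mb with a Spearman correlation of 0.811, or 0.772 outside dense bins. This describes 1 pair of lists, and no test was made of it.

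In bins of 1 Mb the relation with genes was graded in M and nearly flat in RS. Bins were classed by the number of protein-coding genes that start in them. The ratio was 0.638 (0.614 to 0.663) in the 286 bins with no gene and 0.747 in those with 1 or 2 genes. It was 0.977 with 3 to 5 genes and 1.17 with 6 to 10. It reached 1.37 with 11 to 20 genes and 1.51 (1.43 to 1.60) in the 247 bins with more than 20. Outside dense bins the median RS count per bin was 13, 13, 13, 13, 12 and 11 calls over these 6 classes, and the median M count was 21.5, 18, 13, 10, 7 and 5. The gradient thus lay mostly in M. Of the 286 bins with no gene, 42 had more calls in RS and 238 more in M. Of the 247 bins with most genes, 187 had more calls in RS and 51 more in M. On X the ratio stayed between 0.182 and 0.271 in all 6 classes, so the X difference did not follow gene content in this way. The pair of RS at 2 U and M at 1 U gave 0.705 in bins with no gene and 1.26 in those with most.

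**Figure D2:**
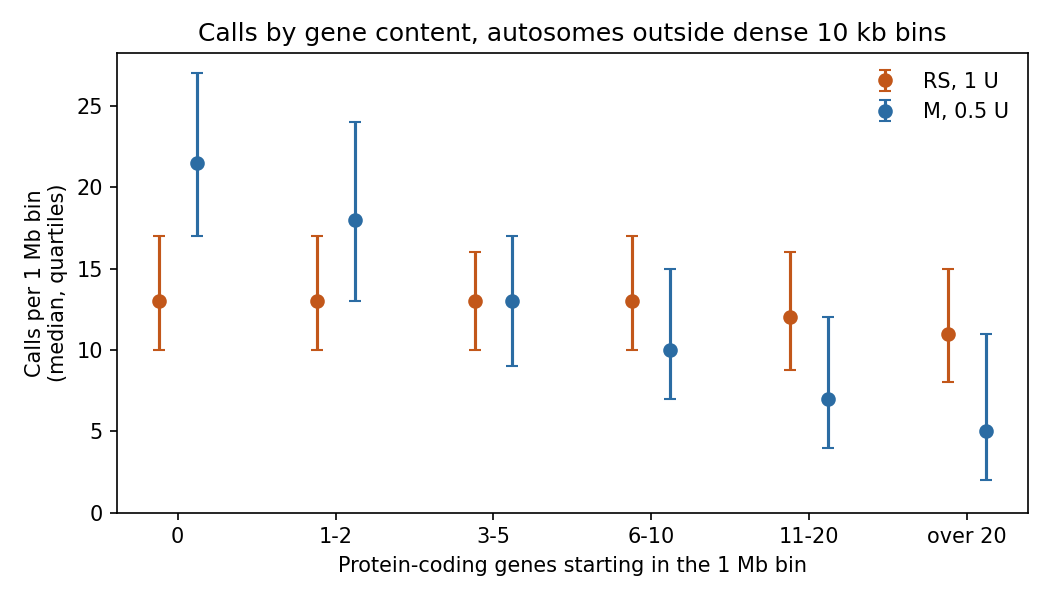
Median calls per autosomal 1 Mb bin, with quartiles, by the number of protein-coding genes that start in the bin, for RS 1 U and M 0.5 U, outside dense 10 kb bins. RS medians stay between 11 and 13, while M medians run from 21.5 in bins with no gene down to 5 in bins with more than 20.

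Of 1757 bins with at least 20 calls over both lists, 208 (11.8%) were 2-fold or more higher in RS and 268 (15.3%) were 2-fold or more lower. Only 1 of the 276 such bins without genes was higher in RS, and 90 were lower. Of the 206 bins with 11 to 20 genes, 54 were higher in RS and 10 were lower. The bin with the highest ratio, chr4:151000001-152000000, had 20 calls in RS and 1 in M, and holds the transcription activator gene Camta1 and the clock gene Per3. It was followed by chr8:14000001-15000000, with 19 calls in RS and 1 in M, which holds Dlgap2, Cln8 and Arhgef10. The next 3 were chr2:92000001-93000000 (25 in RS, 2 in M), with the clock gene Cry2, chr9:57000001-58000000 (23 in RS, 2 in M), with Sin3a, and chr6:91000001-92000000 (21 in RS, 2 in M), with Hdac11 and Xpc.

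At the other end, 4 of the 5 bins with the lowest ratio held 3 genes or fewer. The bin chr12:119000001-120000000, with Itgb8, Macc1 and Tmem196, had 1 call in RS and 31 in M. The bin chr15:23000001-24000000, which the cadherin gene Cdh18 overlaps, had 2 calls in RS and 45 in M. Both were called at many separate places in M, at 20 and 29 positions. The other 3 were chr10:100000001-101000000 (3 in RS, 21 in M), with Kitl, the ligand of the Kit receptor, chr12:37000001-38000000 (4 in RS, 28 in M), with Meox2, Agmo and Dgkb, and chr14:17000001-18000000 (4 in RS, 26 in M), with the nuclear receptor genes Rarb and Thrb.

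Gene bodies took a larger part of the RS list. Protein-coding gene bodies cover 38.8% of the span of the 21 chromosomes and held 36.6% (36.2 to 37.1) of RS calls and 28.8% (28.4 to 29.2) of M calls, a ratio of 1.27 (1.24 to 1.30). RS calls fell in genes at about the share of the genome that genes cover, and M calls below it. The ratio was 1.64 in genes of up to 10 kb, 1.65 from 10 to 50 kb, 1.54 from 50 to 200 kb and 1.11 from 200 to 500 kb. In genes over 500 kb it turned to 0.836 (0.792 to 0.881), with 2504 calls in RS and 3058 in M. In autosomal bins with 5 genes or fewer the ratio was 0.922 inside gene bodies and 0.737 outside them, and in bins with 6 or more it was 1.57 inside and 1.13 outside. These classes are broad, and gene number still varied within each.

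Around CpG-rich transcription starts the stages were closer at the start than in its flanks. Promoters were called CpG-rich where GC content was at least 55% and the observed over expected CpG at least 0.6, which held for 9934 of 32817. Around these, outside dense bins, the 3 windows of 200 bp from 400 bp before to 200 bp after the start held 130 calls in RS and 106 in M, a ratio of 1.27 (0.977 to 1.66). The 17 other windows within 2000 bp held 367 calls in RS and 109 in M, a ratio of 3.49 (2.81 to 4.37). Per window, the centre was 2.01 (1.63 to 2.46) times the flank in RS and 5.51 (4.18 to 7.27) times in M. M calls near CpG-rich starts were therefore concentrated at the start, and RS calls less so. The window with most calls was the 200 bp before the start in both stages, with 56 in RS and 42 in M. At the other 22883 promoters the centre held 316 calls in RS and 240 in M (1.37), and the flank held 1137 in RS and 747 in M (1.58). The intervals of these ratios overlap (1.15 to 1.62 and 1.44 to 1.73). There the centre over the flank was 1.58 in RS and 1.82 in M. A call near several starts was counted at each.

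**Figure D3:**
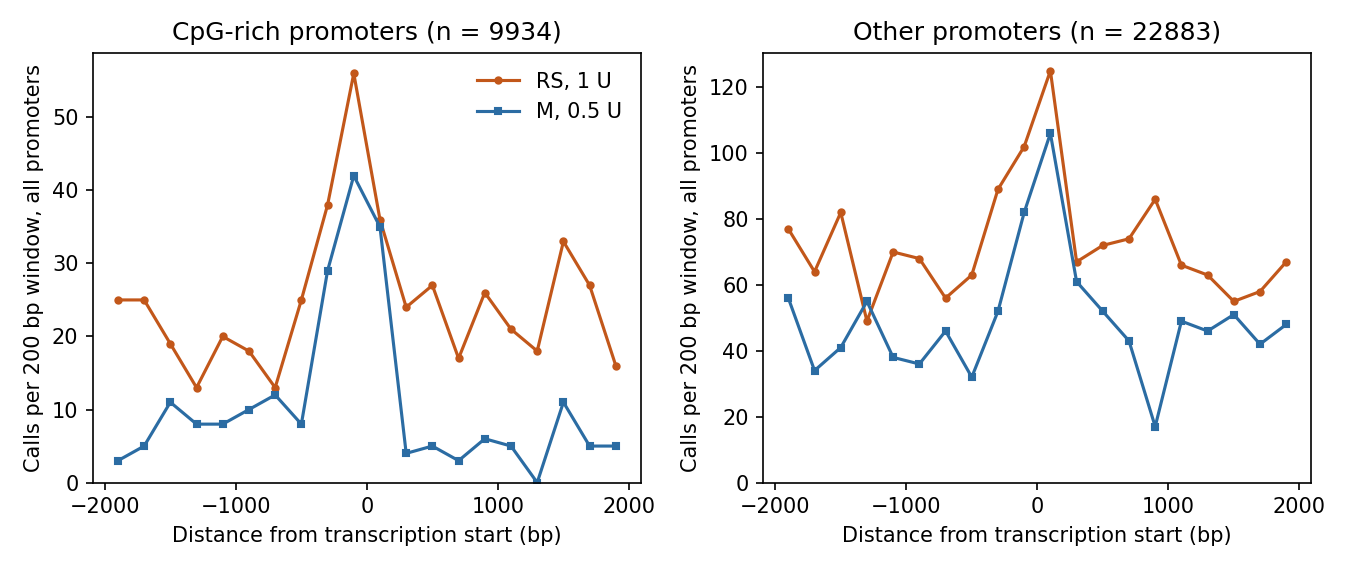
Calls per 200 bp window by distance from the transcription start, summed over CpG-rich promoters and over other promoters, for RS 1 U and M 0.5 U outside dense 10 kb bins. Around CpG-rich starts both stages peak in the window before the start (56 in RS, 42 in M) and the stages part in the flanks.

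At single genes the counts were small. Of 21883 protein-coding genes, counted with 1000 bp on each side, 15625 had no call in either list, 3737 had more in RS and 2102 more in M. Of the 557 genes with at least 10 calls over both lists, 96 (17.2%) were 2-fold or more higher in RS and 99 (17.8%) were 2-fold or more lower. The counting interval excluded 1 for 36 genes above and 43 below, and counts this small can pass 2-fold by counting error, so the 2-fold counts describe these lists only. Genes higher in RS had a median length of 279 kb and those lower a median of 463 kb, against 396 kb for all 557. Prm1, Prm2, Tnp1 and Tnp2, which encode the protamines and transition proteins, had no call in either list. The same held for Sycp1 and Sycp3 of the synaptonemal complex, for Kat2a, the gene of Gcn5, and for Brdt, the testis reader of acetylated histones. Each 0 allows up to 3 calls, so no difference was detectable at these genes.

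The 12 genes with the highest ratio were ranked with a count of 0 set to 3 calls, and most were long. Dlgap2, a postsynaptic scaffold gene of chromosome 8, had 19 calls at 12 positions in RS and 1 call in M. Camta1 had 16 calls in RS and 1 in M. Dnah8, a dynein heavy chain of the sperm flagellum at chr17:30626935-30875762, had 25 calls at 16 positions in RS and 2 calls in M, a ratio of 12.8 (3.18 to 111). Its neighbour Glo1, the glyoxalase gene, had 12 calls in RS and none in M, and Btbd9 beside it had 10 in RS and 2 in M, so these 3 neighbours were all higher in RS. Cdh23, a cadherin gene of hair cells, had 13 calls in RS and none in M, Dock8 had 12 in RS and none in M, and Morc1, a germ cell gene, had 11 in RS and none in M. These would rank higher with another value in place of 0. Glo1, Btbd9, Cdh23, Dock8 and Morc1 were named after their values were seen. Garem1, Grik4, Msi2 and the predicted gene Gm29721 had 10 calls each in RS and 1 each in M. Grik4 is a kainate receptor gene and Msi2 an RNA-binding protein gene. Sox6, a transcription factor gene, had 9 calls in RS and 1 in M. Ank2, an ankyrin gene, and Rims2, of the presynaptic active zone, had 13 each in RS and 2 each in M. The predicted gene Gm26650 had 25 calls in RS and 4 in M.

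At the 12 genes with the lowest ratio M calls lay at many places. Dmd, described above, had a ratio with an upper limit of 0.232. Mllt3, a gene of the super elongation complex, had 1 call in RS and 12 in M. Rp1, of the photoreceptor axoneme, had 1 call in RS and 10 calls at 8 positions in M, and Fam135b and Nol4 had the same counts of calls. Cngb3, a cone photoreceptor channel subunit, had 2 calls in RS and 18 at 12 positions in M, a ratio of 0.113 (0.0128 to 0.474). Sema3c, a secreted semaphorin, had 1 in RS and 9 in M. Col11a1, a collagen gene, had 2 in RS and 15 in M. Fshr, the follicle-stimulating hormone receptor of Sertoli cells, had 2 calls in RS and 13 at 11 positions in M. Cacna1c, a calcium channel gene, and Dach1, a transcription factor gene, also had 2 each in RS and 13 each in M. Chil4, a chitinase-like gene and the shortest of the 12, had 3 in RS and 19 in M.

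Gene lists by function were set against all protein-coding genes, which together held 15102 calls in RS and 12074 in M. Of all genes with more calls in one stage, 64.0% had more in RS. A list ratio above 1 is thus above the surplus that genes in general had in RS. Of 23 lists, 8 had an interval that excluded 1. No list was tested, and a list is described by its counts beside those of all genes.

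Genes of the sperm flagellum and axoneme were higher in RS. Their 72 members held 111 calls in RS and 35 in M, a ratio of 2.54 (1.72 to 3.82). More calls in RS were found for 26 members and more in M for 8, while 37 had none. Without Dnah8 the ratio was 2.08 (1.38 to 3.21). Dnah3, another dynein heavy chain, had 7 calls in RS and none in M. Tsga10, of the sperm tail sheath, had 6 in RS and none in M, and Cfap221, of the central apparatus of cilia, had 5 in RS and none in M. The 15 genes of the CatSper calcium channel of the sperm tail had 15 calls in RS and 1 in M, a ratio of 12.0 (1.85 to 505). Of these, Catspere1 had 7 in RS and none in M, Catsper1, a pore subunit, had 3 in RS and none in M, and Catsper3 had 2 in RS and none in M. Without Catspere1 the ratio was 6.40 (0.858 to 284). Catspere2 gave the only M call of this list, with 2 in RS.

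Meiotic recombination and synapsis genes had 39 calls in RS and 15 in M over 62 members, a ratio of 2.08 (1.12 to 4.06). More calls in RS were found for 14 members and more in M for 5. Mei4, needed for meiotic DNA breaks, had 9 in RS and 3 in M, and its partner Rec114 had 5 in RS and 1 in M. Rad21l, a meiotic cohesin, and Rnf212b, a ring finger gene, had 3 each in RS and none in M. This ratio depended on how calls were counted: joined positions gave 1.53 (0.733 to 3.38), and calls above 6 reads turned the ratio to 0.780 (0.188 to 3.07). Ribosomal protein genes had 16 calls in RS and 2 in M, a ratio of 6.40 (1.504 to 57.3), or 3.60 (0.746 to 34.3) by joined positions. Rps6 gave 4 of the RS calls and Rps15a and Rps23 gave 3 each, with none in M.

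Very long neuronal genes were lower in RS. The 77 members, a list that also holds Sox5 and Sox6, had 1142 calls in RS and 1514 in M, a ratio of 0.603 (0.558 to 0.652). More calls in RS were found for 19 and more in M for 55. Past 2-fold were 4 higher and 12 lower of 70 members with at least 10 calls, shares near or under the 17.2% and 17.8% of all genes. Astn2, an astrotactin gene, had 8 calls at 6 positions in RS and 36 calls at 25 positions in M, a ratio of 0.227 (0.0911 to 0.496). Nkain3 had 7 in RS and 30 in M. Lrp1b, of the LDL receptor family, had 26 in RS and 48 in M, and Cntnap2, a neurexin family gene, had 28 in RS and 48 in M. Set against genes of the same length class, the list ratio was 0.920 (0.851 to 0.994), so most of its distance from 1 was common to long genes.

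Receptor and antibody gene clusters were lower in RS relative to all protein-coding genes. Type 2 vomeronasal receptor genes, which encode pheromone receptors, had 80 calls in RS and 117 in M over 126 members, a ratio of 0.547 (0.406 to 0.733). More calls in RS were found for 20 and more in M for 34. Vmn2r30 had 0 in RS and 8 in M, Vmn2r1 had 1 in RS and 7 in M, and Vmn2r112 had 4 in RS and 11 in M. Vmn2r49 went the other way, with 13 in RS and 7 in M. Immunoglobulin heavy chain V genes had 137 calls in RS and 164 in M, a ratio of 0.668 (0.528 to 0.843). Most of these calls lay in dense bins. Outside them were 46 in RS and 60 in M, a ratio of 0.612 (0.407 to 0.914). Without the 1000 bp on each side the ratio was 0.879 (0.465 to 1.67), and with calls above 6 reads it was 0.819 (0.595 to 1.12). Ighv5-8 had 3 in RS and 14 in M, while Ighv1-66 had 11 in RS and 3 in M. Olfactory receptor genes had 75 calls in RS and 84 in M, a ratio of 0.714 (0.516 to 0.986), with 46 members higher in RS and 47 higher in M of 1117, and 0.750 (0.540 to 1.04) without the member with the largest difference. By joined positions the intervals of the antibody and olfactory lists included 1, at 0.746 (0.530 to 1.05) and 0.772 (0.523 to 1.14). Relative to all calls they also included 1, at 0.853 (0.675 to 1.08) and 0.911 (0.658 to 1.26), while the type 2 vomeronasal list stayed below it at 0.698 (0.518 to 0.935). Members of these families are near-copies of each other, and how reads that fit several copies were placed is not given in the sources used here.

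For the other lists the interval included 1 or there were too few calls. Acrosome formation genes had 26 calls in RS and 20 in M (1.04, 0.558 to 1.96), with 8 members higher in RS and 2 higher in M. Syne1, a nuclear envelope gene, had 5 in RS and 17 of the M calls, and without it the ratio was 5.60 (1.67 to 29.3). The member left out, here and below, was the one with the largest difference in these data, so such ratios only describe the list. Among the others the autophagy gene Atg7 had 5 in RS and none in M and Spata16 had 4 in RS and none in M. Histone acetylation genes had 45 calls in RS and 36 in M (0.999, 0.630 to 1.59), or 1.26 (0.765 to 2.10) without the member with the largest difference. Among them Supt3, of the SAGA complex in which Gcn5 acts, had 1 in RS and 8 in M, Hdac9, a deacetylase, had 10 in RS and 14 in M, and Kat2b, the acetyltransferase most like Gcn5, had 3 in RS and none in M. Genes of spermatid chromatin had 9 calls in RS and 6 in M, of which Camk4, a kinase gene, had 7 in RS and 2 in M. Spermatogonial genes had 11 in RS and 14 in M (0.628, 0.258 to 1.49), with 4 members higher in RS and 7 higher in M. The stem cell factor Zbtb16 went against most of the list, with 5 in RS and none in M. Without it the list ratio was 0.343 (0.108 to 0.949). Sertoli and Leydig cell genes had 22 in RS and 28 in M (0.628, 0.342 to 1.14), or 1.07 (0.519 to 2.24) without the member with the largest difference. Developmental factors had 66 in RS and 50 in M (1.06, 0.720 to 1.56), or 0.963 (0.634 to 1.47) without the member with the largest difference. Among them were Ebf1 with 13 in RS and 6 in M and Lmx1a with 0 in RS and 4 in M. Zfp zinc finger genes had 503 in RS and 377 in M (1.07, 0.932 to 1.22), or 1.36 (1.19 to 1.56) relative to all calls. Housekeeping genes had 8 in RS and 1 in M, Y genes 4 in RS and 7 in M, type 1 vomeronasal receptor genes 13 in RS and 10 in M, and replication-dependent histone genes 3 in RS and 4 in M. Protocadherin clusters had 4 in RS and 2 in M, keratin-associated genes 2 in each, and defensins 2 in each. The 31 multicopy and spermatid genes of X had no call in either list.

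**Figure D4:**
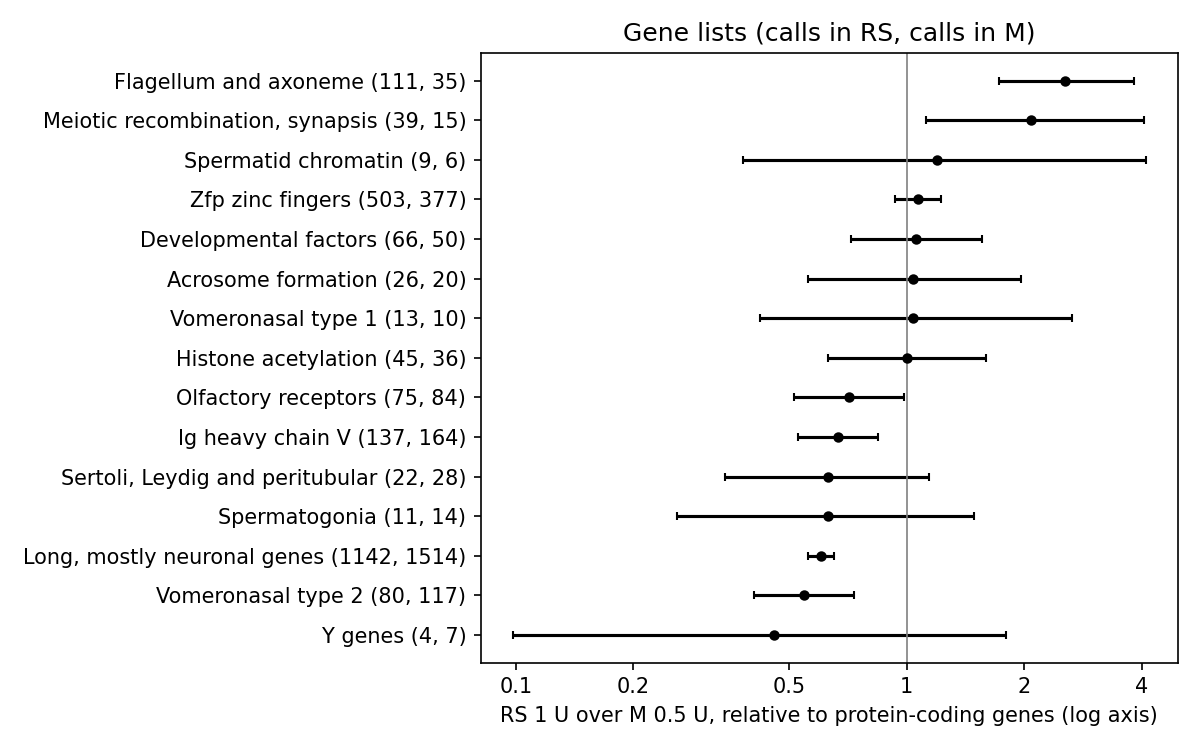
Ratio of RS 1 U over M 0.5 U calls in the gene lists with at least 10 calls and more than 3 in M, relative to all protein-coding genes, on a log axis with exact 95% intervals for counting error; the calls of RS and then M stand beside each name. Flagellum and axoneme genes lie at 2.54 and very long neuronal genes at 0.603.

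Few single positions were found in both stages. An M call lay within 73 bp of 11.2% (10.9 to 11.5) of RS calls, and an RS call within 73 bp of 10.6% (10.3 to 10.9) of M calls. Outside dense bins these shares were 2.89% of RS calls and 2.80% of M calls, where calls spread evenly would give 0.192% and 0.185%. As joined positions outside dense bins, 330 were shared, 1.41% of RS positions and 1.37% of M positions. The share grew with the reads behind a call. Outside dense bins 1.09% of RS calls of 6 reads had an M call, 3.42% of those of 7 reads, 14.2% of those of 8 or 9 and 79.2% (74.9 to 83.0) of those of 10 or more. In M the shares were 1.22%, 2.40%, 10.4% and 71.3% (66.8 to 75.5). Most calls at the minimum were thus found in only 1 of the stages, and most calls of 10 or more reads in both. As joined positions outside dense bins, the shares at 10 or more reads were lower, 51.7% in RS and 43.5% in M. How reads that fit several places in the genome were placed is not given in the sources used here. The shares of the strongest calls therefore do not show that single nucleosomes kept their place between the stages. Because each list pools its replicates, no share between replicates could be set beside these values. The low shares at the minimum of 6 reads therefore do not show that positions differed between the stages.

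**Figure D5:**
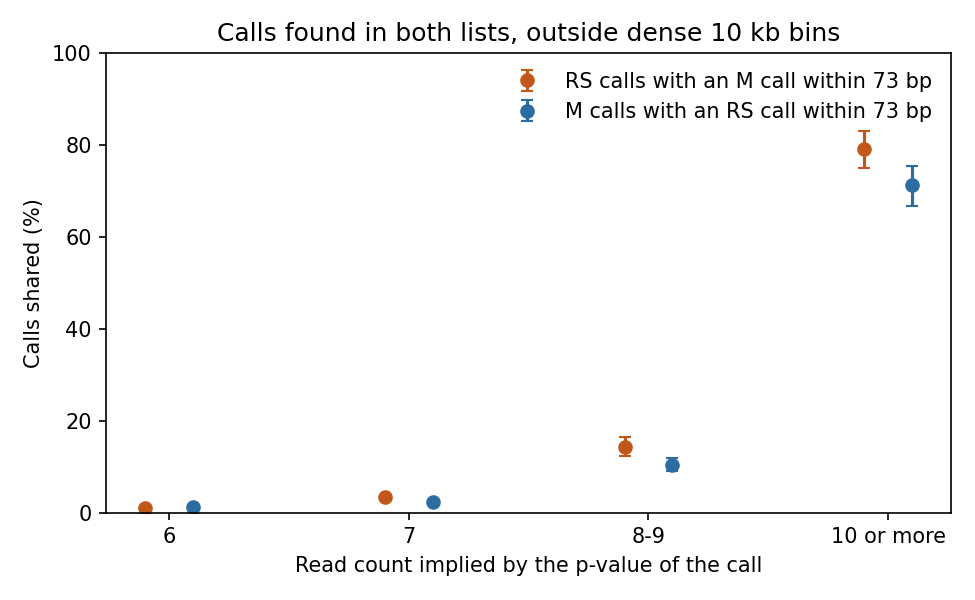
Share of RS 1 U calls with an M 0.5 U call within 73 bp, and of M calls with an RS call, by the read count implied by the p-value, outside dense 10 kb bins, with exact 95% intervals. Both run from about 1% at 6 reads to 79.2% of RS calls and 71.3% of M calls at 10 or more.

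Where a call was shared, an M call was often near, but overlapping calls were each counted. Of 971 shared RS calls outside dense bins, 222 had an M call at identical coordinates, 599 within 10 bp and 723 (74.5%) within 20 bp. Overlapping calls of a list could lie only 20 bp apart. Where both lists had several calls at a place, a small distance was therefore likely by construction. The 330 shared positions were spread over 295 bins of 10 kb, 161 lay in genes and 6 on X. Reads were 10 or more in both stages at 50 of them and at the minimum in both at 65. At 4 positions the p-values were under 1e-300 in both stages, which is beyond the range where reads could be derived. These were chr12:3109922-3110141, chr4:64497737-64498081, chr6:103649097-103649311 in the cell adhesion gene Chl1, and chr9:35305302-35305611. All 4 had identical coordinates in RS and M. Below them, a position in Aida at chr1:183299212-183299611 had 103 reads in RS and 92 in M, and one in Kctd16 had 96 in RS and 60 in M. A position in the shared span of Cmss1 and Filip1l had 56 in RS and 39 in M. One in Lars2, a mitochondrial leucyl-tRNA synthetase gene, had 46 in RS and 35 in M, and one on chromosome 12 outside genes had 64 in RS and 50 in M. Vps45, a vesicle trafficking gene, had 38 reads in RS and 54 in M, the only one of the 6 with derived reads that had fewer in RS. The counts at these positions were far above the derived means of 0.472 reads per window in RS and 0.434 in M. Whether such counts come from a single nucleosome at each place was not tested.

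Among joined positions, distances near that of a nucleosome with its linker made up a smaller share in RS, but without joining the intervals of the stages overlapped. Of pairs of joined positions 140 to 1000 bp apart outside dense bins, 32 of 542 in RS, or 5.90% (4.07 to 8.23), and 90 of 684 in M, or 13.2% (10.7 to 15.9), lay at least 180 and under 220 bp apart, a range around 1 nucleosome repeat. An even spread would give 4.65%, which lies inside the RS interval and under the M interval. With the range widened to start at 160 bp, chosen after the data were seen, the shares were 10.5% (8.06 to 13.4) in RS and 16.5% (13.8 to 19.5) in M, where an even spread would give 6.98%, and both intervals lay above it. Whether RS positions exceeded an even spread thus depended on the range. Joining also removes short distances by construction, since positions made of several calls are longer than 140 bp and do not overlap. From 140 to 159 bp there were 158 pairs in RS and 156 in M without joining, and 3 in RS and 8 in M with it. An even spread is therefore no fair reference for joined positions. How far joining affects the difference between the stages was not tested. From 160 to 179 bp alone, joined positions gave 25 pairs in RS and 23 in M. Without joining, the shares from 180 bp were 10.9% (9.69 to 12.2) in RS and 13.2% (11.9 to 14.6) in M. From 160 bp they were 17.6% (16.1 to 19.2) in RS and 19.8% (18.3 to 21.4) in M. In both ranges the intervals without joining overlap. The most common distance was 175 bp in RS and 195 bp in M for joined positions outside dense bins, 175 bp in RS and 185 bp in M over all calls, and 205 bp in both for joined positions with dense bins.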

How the data were processed

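MNase-seq was analysed in 4 samples, 2 of RS at 1 U and 2 of M at 0.5 U. The aligner STAR (version 2.5.2a) and the build GRCm38/mm10 are named, per the submitters' processing notes. The design text says that each list was made from both replicates. The caller of nucleosomes is not given in the sources used here. The deposited files give intervals of 140 bp with the authors' p-value for each call. These p-values matched Poisson tails from 6 reads upward to within 1.06e-10 on the natural log scale, which gave the reads per call, and values under 1e-300 were set to the next count. The sequencing depth of each sample is unknown, which limits the precision of all counts. Calls on 21 chromosomes were placed by their midpoints, with numpy 2.4.6, pandas 2.3.3 and scipy 1.17.1.

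Genes (21883 protein-coding, with 1000 bp added on each side) and promoters came from RefSeq tables of GRCm38.p6, of which the gene table gives neither strand nor exons. Starts from the promoter table were therefore used for windows at gene ends. A 10 kb bin was dense where 1 or more of the 6 lists had over 20 calls in it. Shares and ratios have exact Clopper-Pearson 95% intervals, for counting error only, and a count of 0 was given a limit of 3 calls. The counting steps were tested on simulated data, and figures were drawn with matplotlib 3.10.9.

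The comparison and the gene lists were chosen with earlier results of these data known. Genes named were 8 fixed genes, the 12 with the highest and the 12 with the lowest ratio among protein-coding genes with 10 or more calls and no dense bin, up to 4 members per list with the largest difference, the 10 X genes with most M calls, the 5 bins at each end, the 10 shared positions with most reads and the promoters with most reads. Some members chosen by this rule are given only within their list's counts, and some genes it chose are not reported here. Alternatives changed the minimum reads, joined overlapping calls, left out dense bins, and changed windows, bins, folds and scalings.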

Additional observations from a re-analysis of the deposited data

Results flagged for a closer look

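Calls on contigs outside the 21 chromosomes entered only the list sizes, the shares of calls by reads and the shares in dense bins, and none of the comparisons by chromosome, gene or position. RS at 1 U had 2139 such calls, 5.14% of its list, and M at 0.5 U had 1845, 4.37% of its list. Contig JH584304 alone held 1722 of them in RS and 1485 in M. A signal in data outside the main measurement is what drew attention to these calls, and there is no control list to set them against.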

How the results depend on the processing

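No paired analysis was possible because each list pools both replicates of its group, and for the same reason leaving out a replicate was not run. Of 121 further values for the main results, 69 stayed within the range given for counting error (or within 1.5 times, for counts), 51 moved beyond it and 1 turned round. The X ratio and the Y ratio stayed within their intervals under every alternative run on this pair of lists. Scaling to 10 kb bins with a call in any list, counted among these, could not move either ratio, since the same bins divide both lists. Autosomes whose interval excludes 1 numbered 13, 11 with calls above the minimum, and 9 each with joined positions, without dense bins and with both. The ratio of calls above the minimum of 6 reads was 0.921, and 0.953 for 8 or more, but 1.13 for 10 or more. It was 0.856 with joined positions and 0.825 without dense bins. The ratio of list sizes was 0.909 for calls above the minimum, 0.965 without dense bins and 0.971 with joined positions outside them.

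With calls above the minimum only, the gene body ratio was 1.22, the ratio within 1000 bp of starts 1.35 (1.54 with all calls), the gene-free bins 0.664 and the bins with most genes 1.39. Then 18 bins were 2-fold higher and 11 lower, 17 genes higher and 18 lower, and 3 gene lists had an interval excluding 1. The meiotic recombination list turned to 0.780, the shared part of RS calls became 25.5%, and 17.4% of promoters with an RS call were CpG-rich. With joined positions, 59 bins were higher and 167 lower, 36 genes higher and 44 lower, 5 lists excluded 1, 3.45% of RS positions were shared and the most common distance was 205 bp in RS and 205 bp in M. With joined positions outside dense bins, chosen after the data were seen, these were 59 and 169 bins, 35 and 43 genes, 5 lists and 1.41%, with 1.61 in bins with most genes. Leaving out dense bins alone gave 2.89% shared.

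All RefSeq genes gave a gene body ratio of 1.20 and windows of 500 bp a ratio at starts of 1.38. Bins of 500 kb gave 0.701 without genes, and 79 bins 2-fold higher. Bins of 2 Mb gave 0.667 without genes, 1.37 with most and 99 bins lower. At 1.5-fold 404 bins were higher and 542 lower, at 3-fold 68 and 81. With at least 5 calls 350 genes were higher and 208 lower, with at least 20 calls 17 and 35. Shared calls were 8.27% within 20 bp and 13.1% at 2 times the distance used. Distance bins of 5 bp gave a most common distance of 152.5 bp in RS. The cause of these shifts was not tested, except that fewer calls and other cut-offs change counts by construction. The unknown depth and the pooling of replicates limit every value. In 8 cases an alternative left a small gene list without M calls and gave no ratio. Of 190 further values for single gene lists, 178 stayed within their range, 11 moved and 1, the meiotic recombination list, turned round.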
